A study of Mus musculus with 16 samples.

Results

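The genes described here are 10 genes of nitric oxide and prostaglandin synthesis given by symbol, and they were chosen with earlier results of these data known. The nitric oxide genes are Nos2, Gch1, Ass1, Slc7a2 and Ddah1, and the prostaglandin genes are Ptgs1, Ptgs2, Ptges, Ptgis and Hpgd. All 10 were found among the 55414 gene identifiers of the count files, and all 10 passed the filter on low counts in each of the 5 comparisons. The RNA-Seq came from chondrocyte-enriched cells of the epiphyses of mice aged 3 to 4 days, in a C57BL/6 background, with the sexes pooled. Mutant mice were heterozygous for Notch2tm1.1Ecan, an allele present in every cell of the animal, in which a stop codon removes the PEST domain and leaves a stable NOTCH2. Control mice were wild-type littermates. Cells of each genotype received TNFα at 50 ng/ml or vehicle (PBS) for 6 h, and each of the 4 groups has 4 libraries, named as biological replicates. The sample labels give the removal of serum for the TNFα groups alone, whereas the study's text gives it for both treatments, so a difference between TNFα and vehicle would include serum removal if the labels are right.

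Nitric oxide is made from arginine by nitric oxide synthases, and the inducible form NOS2 is known as a product of cartilage cells exposed to inflammatory cytokines. NOS2 needs arginine, which SLC7A2 carries into the cell and ASS1 helps to rebuild from citrulline, and tetrahydrobiopterin, whose synthesis begins with GCH1. DDAH1 breaks down asymmetric dimethylarginine, an inhibitor of the synthases. Prostaglandins are made from arachidonic acid by the cyclooxygenases encoded by Ptgs1 and Ptgs2. Their product is turned into prostaglandin E2 by PTGES and into prostacyclin by PTGIS, and HPGD inactivates prostaglandins by oxidation.

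Levels are in CPM, the standard edgeR unit in which each library's counts on genes are scaled to 1 common total, here after TMM normalization. Adjusted p values are from the quasi-likelihood test of edgeR, corrected by the Benjamini-Hochberg method across every gene tested, and a gene was called when its adjusted p was under 0.05. Totals on genes ranged from 3439726 in mutant TNFα replicate 4 to 44237300 in mutant vehicle replicate 4, and the others lay between 12552727 and 19925916. The shallowest library still held 1609 counts of Nos2 but 4 of Hpgd. Heyl, a Notch target, was at 1.17 to 2.28 CPM in the mutant libraries and at 0.0788 to 0.549 CPM in the control libraries, with no overlap, while the counts of Notch2 itself cannot show the allele. The Notch targets Hes1 and Hey1 were higher in mutant cells with vehicle, without overlap. With TNFα the genotypes overlapped for both. Hes1 was then at 3.03 to 5.79 CPM in mutant and 2.03 to 5.64 CPM in control libraries, and Hey1 at 1.66 to 3.39 and 2.21 to 3.13 CPM. The summed level of 8 chondrocyte markers was 41019 to 44998 CPM in control vehicle, 25688 to 30162 in mutant vehicle, 29273 to 34969 in control TNFα and 15199 to 17455 CPM in mutant TNFα libraries. All 8 markers were called lower in mutant than in control cells under each treatment and lower with TNFα in each genotype. Of all genes tested, 4.35% with vehicle and 4.31% with TNFα were called lower in mutant cells. With TNFα, 20.9% were called lower in control and 21.9% in mutant cells. In such bulk RNA, fewer cells of a type and less RNA per cell cannot be told apart.

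Control vehicle replicate 4 stood apart from the other vehicle libraries. On the first principal component, which held 79.4% of the variance, it was at -16.5, against -52.2 to -49.9 for the other vehicle libraries and 35.8 to 50.5 for the TNFα libraries, of which control TNFα replicate 4 was the lowest. For 9 genes known to respond to TNFα, it lay 11.1 to 17.8% of the way from the other control vehicle libraries to the other control TNFα libraries. Nos2, at 17.0% of the way, Slc7a2 at 15.7% and Gch1 at 11.3% lay in that range. Outside it were Ptgis at 49.9%, Hpgd at 34.6%, Ddah1 at 21.9%, Ptges at 9.36%, Ass1 at 0.437% and Ptgs2 at -3.62%.

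**Figure D1:**
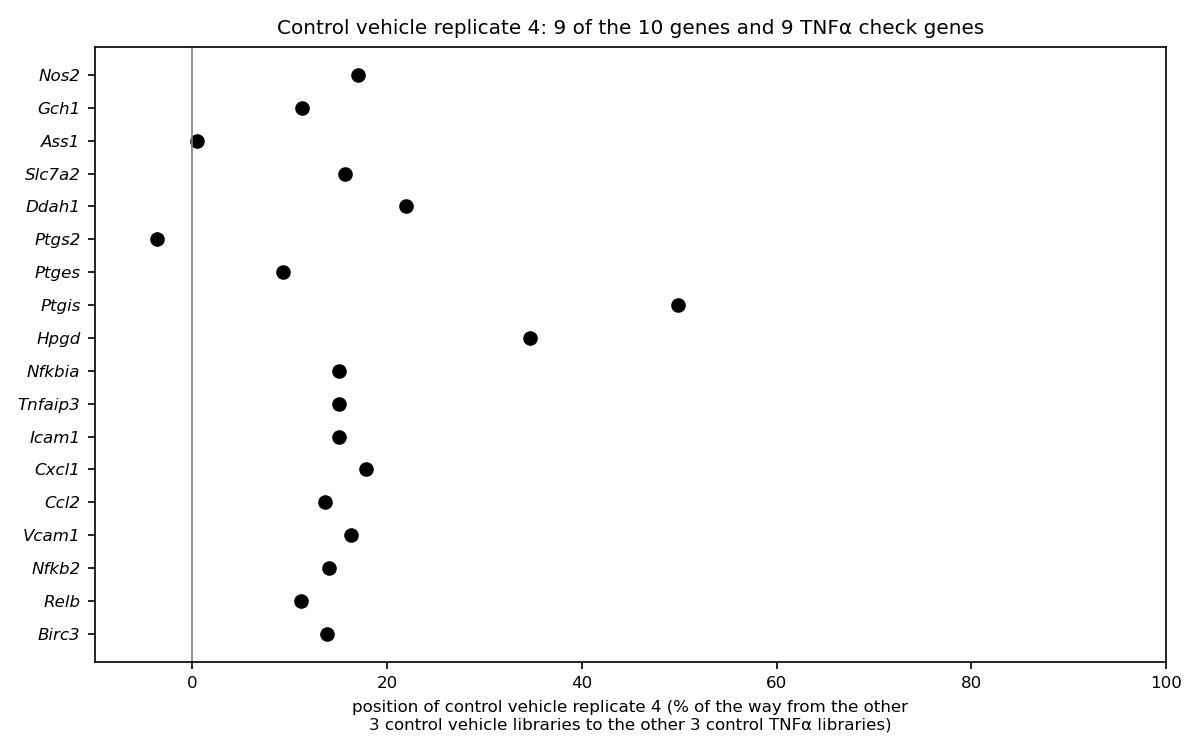
Position of control vehicle replicate 4 between the means of the other 3 control vehicle libraries (0%) and of the other 3 control TNFα libraries (100%) for 9 of the 10 genes and 9 TNFα check genes. Each point is 1 gene, and Ptgs1 is not drawn because its treated and untreated means hardly differ; the check genes lie between 11.1 and 17.8%, and Ptgis lies farthest along at 49.9%.

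TNFα moved most of the 10 genes in both genotypes, in both directions. In control cells 8 were called, with Gch1, Ass1, Slc7a2 and Ptges higher and Ddah1, Ptgs2, Ptgis and Hpgd lower, where 44.2% of the 19338 genes tested were called (23.3% higher and 20.9% lower). In Notch2tm1.1Ecan cells the same genes were called in the same directions and Nos2 was called higher, which makes 9, where 44.5% of all genes were called (22.6% higher and 21.9% lower). The libraries of the treatments did not overlap for 9 of the 10 genes in each genotype, which was so for 41.8% of all genes in control and 40.2% in mutant cells. Without control vehicle replicate 4, 9 genes were called in control cells, against 45% of all genes, and 47.4% of all genes were called without both control libraries numbered 4. At log2 changes of 1 or more, 5 genes were called in control cells and 8 in mutant cells, beside 11.8 and 13.9% of all genes. Median log2 fold changes of the 10 genes were 0.28 and 0.42 in control and mutant cells, beside 0.04 and 0.03 for all genes tested.

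**Figure D2:**
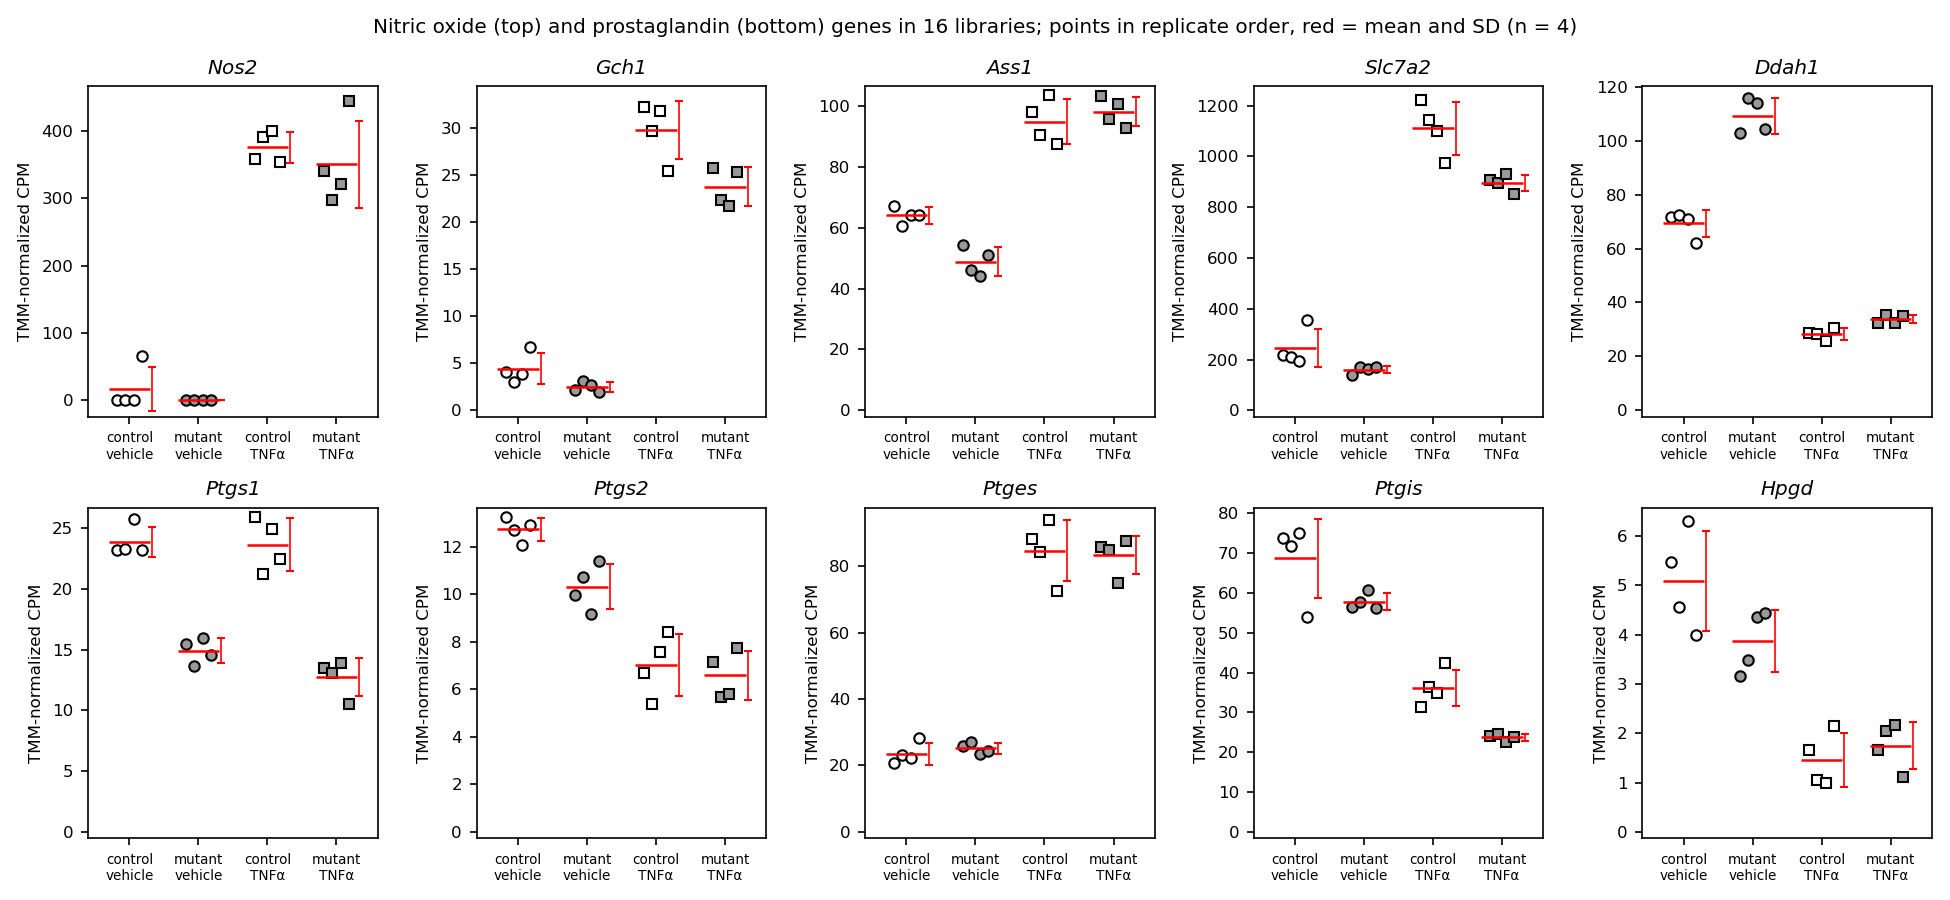
Normalized levels (CPM, linear axes) of the 10 genes in each of the 16 libraries, by genotype and treatment; points are libraries, and lines and bars are means and SD (n = 4). Nos2 is at or near 0 with vehicle except in control vehicle replicate 4 (65.2 CPM) and between 297 and 444 CPM with TNFα.

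Nos2, the inducible nitric oxide synthase (ENSMUSG00000020826, chromosome 11, 78811613 to 78851080, plus strand, GRCm39), had 0 counts in control vehicle replicates 1, 2 and 3 and 1096 counts, or 65.2 CPM, in replicate 4. In mutant vehicle libraries it had 2, 1, 6 and 0 counts. With TNFα its level was 358, 391, 400.4 and 354 CPM in control cells and 341, 297, 321 and 444 CPM in mutant cells. Every TNFα library was above every vehicle library, and the levels of the genotypes with TNFα overlapped. In mutant cells Nos2 rose by 11.76 ± 0.34 (SE) on the log2 scale (adjusted p = 1.71e-08), and the ratio of the group means was 2803. This value rested on few counts with vehicle, and it was 12.91 without mutant vehicle replicate 3, which held 6 of them, and 10.94 without mutant vehicle replicate 4. Its SE, taken from the fold change and the F statistic of the test, is smaller than this spread and understates the uncertainty. In control cells the log2 fold change was 4.49 ± 1.65 and was not called (adjusted p = 0.0713, and 0.193 with DESeq2). Without control vehicle replicate 4 it was called (adjusted p = 2.22e-23), and against a floor of 3 counts per library its mean with TNFα was at least 1645-fold higher than in the vehicle libraries that remained. It was also called in the fit to all 16 libraries.

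Gch1, which encodes the enzyme that begins tetrahydrobiopterin synthesis (ENSMUSG00000037580, chromosome 14, 47391346 to 47426915, minus strand), was at 4.09, 3.05, 3.86 and 6.78 CPM in control vehicle libraries and at 2.14, 3.08, 2.7 and 1.98 CPM in mutant vehicle libraries. With TNFα it reached 32.3, 29.7, 31.9 and 25.5 CPM in control and 25.7, 22.3, 21.8 and 25.4 CPM in mutant cells. The treatments did not overlap in either genotype. The rise was 2.73 ± 0.20 on the log2 scale in control (adjusted p = 2.79e-06) and 3.29 ± 0.13 in mutant cells (adjusted p = 1.49e-17), and 3.01 ± 0.12 in control cells without control vehicle replicate 4.

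Slc7a2, a cationic amino acid transporter for arginine (ENSMUSG00000031596, chromosome 8, 41315431 to 41375345, plus strand), had the highest CPM of the nitric oxide genes. It was at 217, 209, 195 and 356 CPM in control vehicle and at 140.2, 169, 164 and 169 CPM in mutant vehicle libraries. TNFα took it to 1223, 1144, 1100.4 and 975 CPM in control and to 905, 896, 931 and 852 CPM in mutant cells, above all vehicle libraries. It rose by 2.19 ± 0.23 on the log2 scale in control (adjusted p = 0.000331) and by 2.48 ± 0.07 in mutant cells (adjusted p = 1.20e-21). Without control vehicle replicate 4, the rise in control cells was 2.43 ± 0.08.

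Ass1, argininosuccinate synthase (ENSMUSG00000076441, chromosome 2, 31352181 to 31410862, plus strand), rose less. Its level was 67, 60.5, 64.3 and 64.1 CPM in control vehicle and 54.4, 45.9, 44 and 50.8 CPM in mutant vehicle libraries. With TNFα it was 97.8, 90.5, 104 and 87.4 CPM in control and 103, 95.8, 100.5 and 92.7 CPM in mutant cells, without overlap with vehicle. The log2 fold change was 0.57 ± 0.06 in control (adjusted p = 3.98e-08) and 1.01 ± 0.07 in mutant cells (adjusted p = 2.78e-12), and 0.57 ± 0.06 in control cells without control vehicle replicate 4.

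Ddah1, which encodes an enzyme that degrades methylated arginine inhibitors (ENSMUSG00000028194, chromosome 3, 145464361 to 145600032, plus strand), fell. It was at 71.6, 72.6, 71.1 and 62.1 CPM in control vehicle and at 103, 116, 114 and 104 CPM in mutant vehicle libraries. TNFα lowered it to 28.8, 28.3, 25.5 and 30.7 CPM in control and to 32.4, 35.3, 32.5 and 35 CPM in mutant cells, so that all 4 groups were separate from each other. The log2 fold change was -1.28 ± 0.07 in control (adjusted p = 1.19e-11) and -1.70 ± 0.07 in mutant cells (adjusted p = 2.39e-17), and -1.33 ± 0.06 in control cells without control vehicle replicate 4. Its paralog Ddah2, which is not among the 10 genes, rose with TNFα from 27.8 ± 3.11 to 43.8 ± 2.62 CPM in control cells (SD, n = 4), or by 0.66 ± 0.08 on the log2 scale (adjusted p = 2.87e-07), and by 0.75 ± 0.07 without control vehicle replicate 4. In mutant cells Ddah2 rose from 35 ± 2.91 to 59 ± 5.39 CPM.

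Of the cyclooxygenases, Ptgs2 is known as the form induced by cytokines, and here it was lower with TNFα at 6 h. Ptgs2 (ENSMUSG00000032487, chromosome 1, 149975194 to 149983978, plus strand) was at 13.3, 12.7, 12.1 and 12.9 CPM in control vehicle and at 9.99, 10.7, 9.18 and 11.4 CPM in mutant vehicle libraries. With TNFα it was at 6.7, 5.38, 7.58 and 8.41 CPM in control and at 7.15, 5.67, 5.79 and 7.72 CPM in mutant cells, below every vehicle library. It fell by 0.85 on the log2 scale (SE 0.12, adjusted p = 6.01e-06) in control and by 0.71 (SE 0.13, adjusted p = 4.73e-05) in mutant cells. Control vehicle replicate 4 lay within the range of the other control vehicle libraries for this gene, and the change without it was -0.85 ± 0.13. A single time point was sequenced, so these data hold nothing on Ptgs2 before or after 6 h.

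Ptgs1, the cyclooxygenase most tissues express without stimulation (ENSMUSG00000047250, chromosome 2, 36120438 to 36142287, plus strand), was at 23.2, 23.3, 25.7 and 23.2 CPM in control vehicle and at 25.9, 21.2, 24.9 and 22.5 CPM in control TNFα libraries. In mutant cells it was at 15.5, 13.6, 15.9 and 14.6 CPM with vehicle and at 13.5, 13, 13.9 and 10.5 CPM with TNFα. The treatments overlapped in both genotypes. The log2 fold change was -0.01 in control (95% interval -0.17 to 0.15, adjusted p = 0.925) and -0.18 in mutant cells (95% interval -0.39 to 0.03, adjusted p = 0.159), and neither was called. In control cells the value was -0.03 ± 0.08 without control vehicle replicate 4.

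Ptges and Ptgis, the prostaglandin E2 and prostacyclin synthases, moved in opposite directions with TNFα. Ptges (ENSMUSG00000050737, chromosome 2, 30779483 to 30820196, minus strand) was at 20.6, 23.3, 22.1 and 28.3 CPM in control vehicle and 26, 26.9, 23.4 and 24.4 CPM in mutant vehicle libraries, and at 88.2, 84.3, 94.1 and 72.5 CPM in control TNFα and 86, 85, 75 and 87.7 CPM in mutant TNFα libraries. It rose by 1.85 ± 0.11 in control (adjusted p = 5.89e-07) and by 1.73 ± 0.07 in mutant cells (adjusted p = 4.88e-17) on the log2 scale, and by 1.95 ± 0.08 in control cells without control vehicle replicate 4. For both genes the libraries of the treatments did not overlap within a genotype. Ptgis (ENSMUSG00000017969, chromosome 2, 167033725 to 167083018, minus strand) was at 73.9, 71.9, 75.1 and 53.9 CPM in control vehicle and 56.4, 57.7, 60.8 and 56.2 CPM in mutant vehicle libraries, and at 31.4, 36.3, 34.7 and 42.3 CPM in control TNFα and 24.2, 24.6, 22.5 and 23.7 CPM in mutant TNFα libraries. It fell by 0.91 (SE 0.12, adjusted p = 0.000248) in control and by 1.28 (SE 0.07, adjusted p = 2.44e-14) in mutant cells, and its change in control cells was -1.01 ± 0.07 without control vehicle replicate 4.

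Hpgd, 15-hydroxyprostaglandin dehydrogenase (ENSMUSG00000031613, chromosome 8, 56747543 to 56774082, plus strand), had the lowest levels of the 10 genes with TNFα. Its level was 5.47, 4.57, 6.31 and 3.99 CPM in control vehicle and 3.17, 3.49, 4.36 and 4.44 CPM in mutant vehicle libraries. With TNFα it was 1.65, 1.04, 0.991 and 2.14 CPM in control and 1.65, 2.05, 2.16 and 1.1 CPM in mutant libraries, from 4 to 41 counts per library. No TNFα library reached a vehicle library of its genotype. The log2 fold change was -1.79 ± 0.23 in control (adjusted p = 1.33e-06) and -1.06 ± 0.21 in mutant cells (adjusted p = 0.000138), and -1.90 ± 0.23 in control cells without control vehicle replicate 4.

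Promoters are shown for the genes that were called at least 2-fold higher with TNFα in both genotypes and have an entry among the RefSeq promoters (GRCm38.p6), namely Gch1 and Ptges, and for Ptgs2 as a gene that was lower, chosen after its values were seen. Nos2, Slc7a2 and Ptgis have no entry and are absent from the motif counts, and 7 of the 10 genes had one. The 250 bases before the start are given 5′ to 3′ on the strand of the gene, with GRCm39 positions from an exact and single match of the sequence to that genome. Capitals mark matches to the NF-kB consensus (the factor that TNFα is known to activate), to TGGGAA (the core known for RBPJ, the DNA-binding partner of Notch) and to TATAAA, on either strand.
Gch1, chr14:47426871-47427120, minus strand: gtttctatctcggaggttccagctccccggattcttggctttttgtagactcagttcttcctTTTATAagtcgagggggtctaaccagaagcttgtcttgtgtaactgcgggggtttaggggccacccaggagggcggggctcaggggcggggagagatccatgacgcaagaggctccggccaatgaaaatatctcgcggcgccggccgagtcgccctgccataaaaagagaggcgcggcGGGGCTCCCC
Ptges, chr2:30793310-30793559, minus strand: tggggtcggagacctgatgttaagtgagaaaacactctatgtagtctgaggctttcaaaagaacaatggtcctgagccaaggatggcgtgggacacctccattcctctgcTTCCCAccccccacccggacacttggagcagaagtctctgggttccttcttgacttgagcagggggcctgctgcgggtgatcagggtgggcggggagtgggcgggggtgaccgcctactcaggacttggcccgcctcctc
Ptgs2, chr1:149975532-149975781, plus strand: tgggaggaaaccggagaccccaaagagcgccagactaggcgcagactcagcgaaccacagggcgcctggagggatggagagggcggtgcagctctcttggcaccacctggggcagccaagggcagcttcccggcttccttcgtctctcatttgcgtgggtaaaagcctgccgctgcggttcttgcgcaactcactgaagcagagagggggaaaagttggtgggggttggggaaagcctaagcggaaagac
Gch1 held an NF-kB consensus match that began 10 bases before the start and TATAAA on the opposite strand 188 bases before it, and Ptges held TGGGAA on the opposite strand 140 bases before the start. Ptgs2 held none of them in these letters. The RefSeq starts of Gch1, Ptges and Ptgs2 lie inside the span that GENCODE gives for each gene. The printed stretch of Gch1 spans its GENCODE start, at 47426915. Those of Ptges and Ptgs2 lie wholly past the GENCODE starts, at 30820196 and 149975194, and so does that of Ass1, which is not printed. For these genes the bases before the GENCODE start were not searched.

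Over the full 300 bases of each entry, from 250 before to 50 after the start, the NF-kB consensus was found for 1 of the 7 genes, beside 8.46% of all 32851 promoters. TGGGAA was in 1 of 7 and in 25.6% of all promoters, and TATAAA in 2 of 7, Gch1 and Hpgd, and in 13.6% of all. TGANTCA, the motif known for AP-1, and TTCNNNGAA, the motif known for STAT factors, were in none of the 7 and in 7.81 and 8.3% of all promoters. The 4 matches in these genes do not overlap each other. A match describes letters and says nothing of binding.

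The comparison of genotypes asks whether the Notch2 mutation altered these genes, with vehicle or with TNFα. With vehicle 4 of the 10 genes were called, Ddah1 higher and Gch1, Ass1 and Ptgs1 lower in Notch2tm1.1Ecan cells, where 10.5% of all genes tested were called (6.19% higher and 4.35% lower). With TNFα 5 were called, Ddah1 higher and Gch1, Slc7a2, Ptgs1 and Ptgis lower, where 9.94% of all genes were called (5.63% higher and 4.31% lower). This count was 3 without control TNFα replicate 1 or 3 or mutant TNFα replicate 2 or 3. The share of all genes called in those fits is not given, so a drop particular to these genes cannot be told from a general one. The genotypes did not overlap for 5 of the 10 genes with vehicle and for 4 with TNFα, which was so for 16.2 and 14.8% of all genes. None of the genotype calls reached a log2 fold change of 1, beside 1.26% of all genes with vehicle and 1.41% with TNFα. Median log2 fold changes of the 10 genes were -0.38 with vehicle and -0.12 with TNFα, against -0.002 and -0.012 for all genes.

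Ptgs1 was lower in mutant cells under both treatments, with no overlap between genotypes. The log2 fold change was -0.67 ± 0.08 with vehicle (adjusted p = 2.85e-06) and -0.83 ± 0.10 with TNFα (adjusted p = 4.83e-07). These calls held when any 1 library was left out, and the value with vehicle was -0.70 ± 0.09 without control vehicle replicate 4.

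Ddah1 was higher in mutant cells, by 0.66 ± 0.06 with vehicle (adjusted p = 4.34e-08) and by 0.26 ± 0.08 with TNFα (adjusted p = 0.0350) on the log2 scale. The call with vehicle held without control vehicle replicate 4 (0.60 ± 0.06). The call with TNFα failed once control TNFα replicate 1, 2 or 3, or any 1 of the 4 mutant TNFα libraries, was left out, with adjusted p values of 0.0507 to 0.177 and log2 fold changes of 0.19 to 0.28.

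Ass1 was lower in mutant cells with vehicle (log2 fold change -0.39 ± 0.07, adjusted p = 0.000261, and -0.39 ± 0.07 without control vehicle replicate 4), and its levels overlapped with TNFα (0.07 ± 0.06, 95% interval -0.06 to 0.20, adjusted p = 0.614). Gch1 was lower in mutant cells, at a log2 fold change of -0.86 ± 0.23 with vehicle (adjusted p = 0.0165) and -0.33 ± 0.09 with TNFα (adjusted p = 0.0158), although the genotypes overlapped under each treatment. The call with vehicle was lost without control vehicle replicate 4 (-0.61, adjusted p = 0.0599) and without mutant vehicle replicate 4 (-0.75, adjusted p = 0.0789). With TNFα it was lost on leaving out control replicate 1 or 3 or mutant replicate 2 or 3 (adjusted p of 0.0503 to 0.0829).

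Slc7a2 and Ptgis were lower in mutant cells with TNFα, at log2 fold changes of -0.30 ± 0.07 (adjusted p = 0.00279) and -0.61 ± 0.09 (adjusted p = 1.34e-05), and the genotypes did not overlap for either. With vehicle neither was called, with log2 fold changes of -0.60 ± 0.21 for Slc7a2 (adjusted p = 0.170) and -0.24 ± 0.08 for Ptgis (adjusted p = 0.0894). Both were called with vehicle once control vehicle replicate 4 was left out, at -0.36 ± 0.06 for Slc7a2 (adjusted p = 0.000238) and -0.35 ± 0.06 for Ptgis (adjusted p = 9.40e-05). Without that library, 5 of the 10 genes were called with vehicle, beside 10.4% of all genes.

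Nos2, Ptgs2, Ptges and Hpgd were called between genotypes under neither treatment. For Nos2 with TNFα the log2 fold change was -0.09 (95% interval -0.36 to 0.17), and without mutant TNFα replicate 4, the shallowest library, it was -0.23 and called (adjusted p = 0.0121). With vehicle no fold is given for Nos2, because both genotypes were at or near 0 apart from control vehicle replicate 4 and 1 mutant library with 6 counts. For Ptgs2 the log2 fold change was -0.29 with vehicle (95% interval -0.50 to -0.09, adjusted p = 0.0622), with no overlap, and -0.14 with TNFα (95% interval -0.46 to 0.19). The intervals for Ptges were -0.09 to 0.29 with vehicle and -0.17 to 0.13 with TNFα, and those for Hpgd were -0.73 to -0.02 and -0.24 to 0.96. Log2 fold changes with vehicle were -0.29 ± 0.10 for Ptgs2, 0.19 ± 0.08 for Ptges and -0.47 ± 0.16 for Hpgd without control vehicle replicate 4, and none was called.

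Most markers of macrophages and of fibroblasts and perichondrium were called higher in mutant cells in the same libraries. The summed level of 10 macrophage markers was 65.8 to 72.9 CPM in control vehicle, 123 to 144 in mutant vehicle, 75.5 to 91.2 in control TNFα and 160.3 to 185 CPM in mutant TNFα libraries, and 7 of 10 were called higher in mutant cells with vehicle and 9 of 10 with TNFα. The 6 fibroblast and perichondrium markers summed to 19559 to 21600 CPM in control and 23524 to 28231 CPM in mutant libraries, and 5 of 6 were called higher with vehicle and 6 of 6 with TNFα. The 6 endothelial markers summed to 6.85 to 12.1 CPM in control and 15.98 to 24.0 CPM in mutant libraries, and 5 skeletal muscle markers to 4.9 to 11.3 and 9.94 to 25.7 CPM. Of the endothelial markers 4 of 6 were called higher with vehicle and 3 of 6 with TNFα, and of the muscle markers 3 of 5 with vehicle and 0 of 5 with TNFα. Of all genes tested, 6.19% were called higher with vehicle and 5.63% with TNFα, and 4.35 and 4.31% lower. No marker of these lists was at 0 in all libraries of a group. All 8 chondrocyte markers were called lower in mutant cells under both treatments, and the part of these markers in the differences of the 10 genes between genotypes was not tested.

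**Figure D3:**
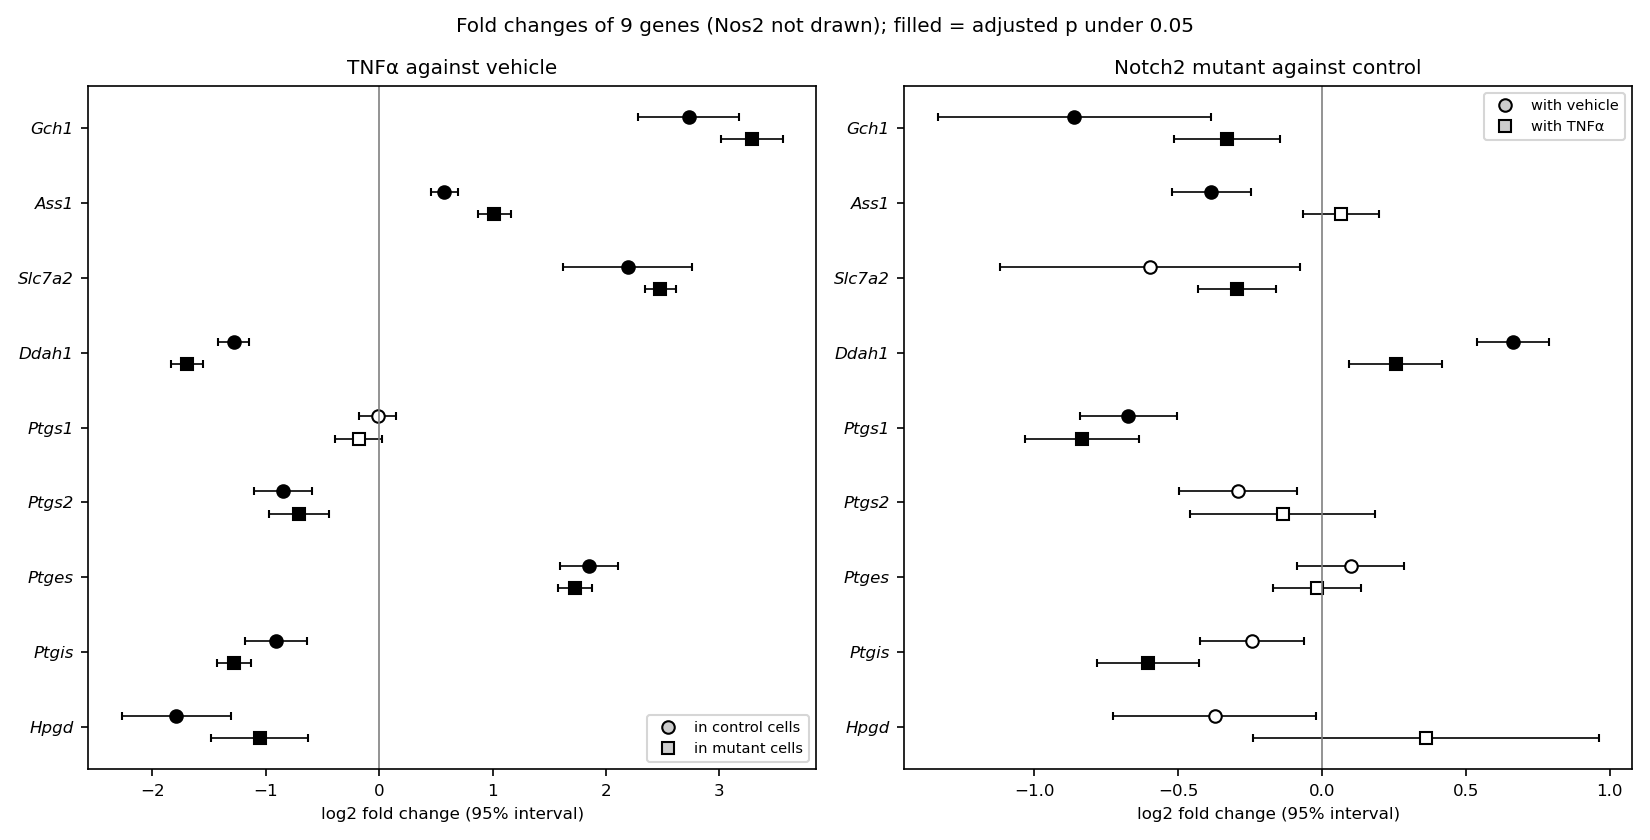
Log2 fold changes (points) with 95% intervals (bars) of 9 of the 10 genes for TNFα against vehicle and for Notch2 mutant against control. Filled points have an adjusted p under 0.05; Nos2 is not drawn because its vehicle libraries are mostly at 0, and Ptgs1 is filled between genotypes and open between treatments.

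Whether the response to TNFα differed between genotypes was tested with the interaction over all 16 libraries. Of the 10 genes 2 were called, beside 0.474% of all genes tested (0.267% higher and 0.206% lower), and 0 at a log2 value of at least 1, where 0.0469% of all genes passed. The number called was 1 without control vehicle replicate 4 and 1 without both control libraries numbered 4, where 0.482 and 0.63% of all genes were called. It was 0 without mutant vehicle replicate 2 or 3, fits for which the share of all genes is not given. The rise of Ass1 was larger in mutant cells by 0.45 ± 0.09 on the log2 scale (adjusted p = 0.0148), and the call was lost without control vehicle replicate 1 or mutant vehicle replicate 2 or 3 (0.39 to 0.41, adjusted p of 0.0542 to 0.0718). The fall of Ddah1 was larger in mutant cells, with an interaction of -0.41 ± 0.10 (adjusted p = 0.0387). This call was lost without control vehicle replicate 2 or 4, mutant vehicle replicate 2 or 3, control TNFα replicate 1, 2 or 4, or mutant TNFα replicate 1, 2 or 3, with adjusted p values of 0.0517 to 0.121, and without both control libraries numbered 4 (-0.32, adjusted p = 0.156). For the other 8 genes the interaction was not called, with adjusted p values of 0.294 to 0.881. For Nos2 the estimate turned from 7.26 to -3.96 without control vehicle replicate 4, and it was called in neither case.

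Levels of different genes were set side by side per kb of exon, with exon lengths from GENCODE M39. With vehicle the ratio of Ptgs2 to Ptgs1 was 0.407 ± 0.0343 (SD, n = 4) in control and 0.529 ± 0.0786 in mutant cells. With TNFα the ratio was 0.226 ± 0.0425 in control and 0.402 ± 0.112 in mutant cells, so that Ptgs1 was the more abundant cyclooxygenase in all 16 libraries. The control TNFα libraries were below all others, while the mutant TNFα libraries overlapped both vehicle groups.

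The ratio of Ptges to Ptgis per kb was 0.289 ± 0.0927 in control vehicle and 0.355 ± 0.0303 in mutant vehicle libraries, and 0.243 ± 0.0186 (n = 3) in control vehicle libraries without replicate 4, which was at 0.426. With TNFα it was 1.94 ± 0.401 in control and 2.85 ± 0.125 in mutant cells, so that Ptges was above Ptgis in every TNFα library and below it in every vehicle library. The genotypes did not overlap with TNFα.

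Among the arginine transporters Slc7a1, Slc7a2 and Slc7a3, Slc7a2 made up 46.4 ± 7.46% of the summed level per kb in control vehicle libraries (42.7 ± 0.385% without replicate 4, n = 3) and 41.1 ± 1.63% in mutant vehicle libraries. With TNFα its share was 85.5 ± 1.83% in control and 85.3 ± 0.499% in mutant cells. Among the prostaglandin E synthases Ptges, Ptges2 and Ptges3, Ptges made up 8.98 ± 1.19% in control vehicle and 9.28 ± 1.52% in mutant vehicle libraries, and 29.98 ± 2.096% and 31.4 ± 4.32% with TNFα. These shares depend largely on Ptges3, which was at 51.3 ± 0.47 CPM per kb in control vehicle and 41.7 ± 0.65 in control TNFα libraries. Ptges was at 5.35 ± 0.75 and 19.2 ± 2.06 CPM per kb in the same groups. The highest level per kb with TNFα was that of Slc7a2, at 109.8 ± 10.2 CPM per kb in control and 88.6 ± 3.26 in mutant libraries. Nos2 came next, at 84.7 ± 5.26 and 79 ± 14.6 CPM per kb, and in mutant cells these levels overlapped within their SD. The lowest was that of Hpgd, at 0.472 ± 0.177 and 0.564 ± 0.155 CPM per kb.

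**Figure D4:**
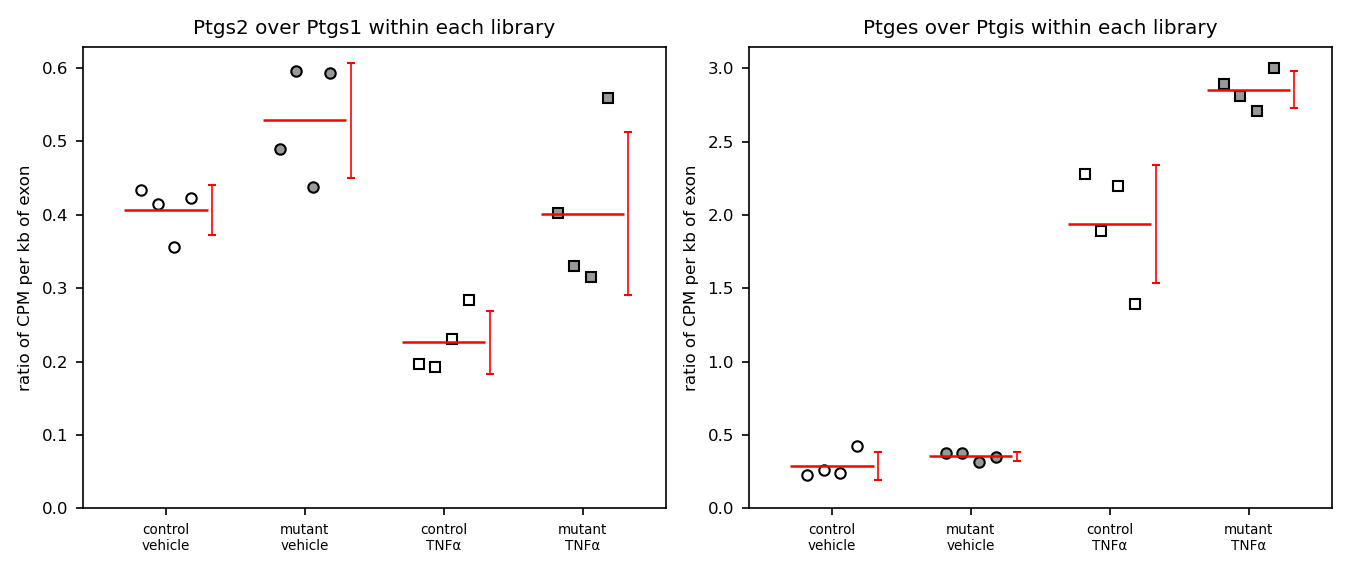
Ratio of Ptgs2 to Ptgs1 and of Ptges to Ptgis, each from CPM per kb of exon within a library, with points for libraries, and lines and bars for means and SD (n = 4). Ptgs2 over Ptgs1 stays below 1 in all 16 libraries, and Ptges over Ptgis is below 1 with vehicle and between 1.39 and 3.01 with TNFα.

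The other genes of the nitric oxide pathway moved in both directions with TNFα. Of 23 genes, 22 were tested in each genotype, and 5 were higher and 8 lower in control cells and 5 higher and 9 lower in mutant cells, with median log2 fold changes of -0.18 and -0.20. Of all genes tested, 23.3% were higher and 20.9% lower in control and 22.6% higher and 21.9% lower in mutant cells, with medians of 0.04 and 0.03, so the count of higher genes was near the share of all genes. Arg2, an arginase that competes for arginine, was called higher in both genotypes, from 0.0446 ± 0.0893 to 1.47 ± 0.472 CPM in control and from 0.0717 ± 0.0441 to 1.29 ± 0.806 CPM in mutant cells (SD, n = 4). Control vehicle replicate 4 was the only control vehicle library in which Arg2 had counts, and without it the gene was also called higher (adjusted p = 7.69e-07). Asl, the partner of Ass1 in rebuilding arginine, rose by 0.68 ± 0.08 and 0.89 ± 0.09 on the log2 scale in control and mutant cells, and Pts, the next enzyme after GCH1 in tetrahydrobiopterin synthesis, by 0.61 ± 0.09 and 0.47 ± 0.13.

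Among the genes lower with TNFα were several that act after nitric oxide, as well as Odc1 and Nos1. Gucy1b1, a subunit of the soluble guanylate cyclase that senses nitric oxide, fell by 1.75 (SE 0.35) in control and by 2.01 (SE 0.27) in mutant cells, from group means of 1.46 and 4.01 CPM. Its partner Gucy1a1 was called lower in mutant cells, from 1.55 ± 0.245 to 0.259 ± 0.193 CPM, and not in control cells, at 0.429 ± 0.272 and 0.277 ± 0.129 CPM, and its interaction was not called (adjusted p = 0.384). Pde5a, which breaks down cyclic GMP, fell by 0.82 (SE 0.11) and 1.25 (SE 0.11). Odc1, which uses the ornithine made by arginases, fell by 0.98 (SE 0.06) and 1.38 (SE 0.08). Nos1, the neuronal synthase, was called lower with TNFα in control cells, from 2.68 ± 0.238 to 1.47 ± 0.618 CPM, and was at 1.22 ± 0.367 and 0.951 ± 0.300 CPM in mutant cells. Without control vehicle replicate 4, the log2 fold changes in control cells were -1.81 ± 0.37 for Gucy1b1, -0.85 ± 0.12 for Pde5a, -1.01 ± 0.07 for Odc1, -0.80 ± 0.27 for Nos1, 0.72 ± 0.09 for Asl and 0.67 ± 0.09 for Pts, each still called.

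Of the other 27 genes of the prostaglandin pathway, 24 were tested in control and 25 in mutant cells, and 9 were higher and 4 lower in control and 9 higher and 5 lower in mutant cells, with median log2 fold changes of 0.25 and 0.20, beside the same shares (23.3% higher and 20.9% lower in control, 22.6% and 21.9% in mutant cells) and medians (0.04 and 0.03) of all genes. Ptgir, the prostacyclin receptor, rose from 3.01 ± 1.29 to 24 ± 1.53 CPM in control (log2 fold change 2.99 ± 0.20) and from 2.46 ± 0.671 to 36.3 ± 2.54 CPM in mutant cells (3.84 ± 0.13), while Ptgis, which makes its ligand, fell. Ptgfr, the receptor for prostaglandin F2α, rose by 1.73 ± 0.14 and 2.28 ± 0.12. Ptger2, a receptor for prostaglandin E2, rose by 2.28 ± 0.45 and 2.41 ± 0.36 from means of 0.201 and 0.316 CPM.

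Abcc4, an exporter of prostaglandins, rose with TNFα by 1.73 ± 0.15 in control and 1.95 ± 0.07 in mutant cells. Ptger1, another prostaglandin E2 receptor, was lower with TNFα, at log2 fold changes of -0.83 ± 0.14 and -1.30 ± 0.16, and so was Tbxa2r, the thromboxane receptor, at -0.92 ± 0.20 and -1.23 ± 0.14. Pla2g4a, the phospholipase that releases arachidonic acid, fell by 0.33 in control and 0.33 in mutant cells (SE 0.07 and 0.09), and Ptges3, a cytosolic prostaglandin E synthase, by 0.29 (SE 0.05) and 0.44 (SE 0.13). Without control vehicle replicate 4, the log2 fold changes in control cells were 3.35 ± 0.13 for Ptgir, from a mean of 2.37 CPM with vehicle, and 1.89 ± 0.06 for Abcc4, from 40.7 CPM. The other prostaglandin genes named here were called in the same direction without it, at 1.72 ± 0.15 for Ptgfr, 2.08 ± 0.47 for Ptger2, -0.84 ± 0.15 for Ptger1, -1.05 ± 0.19 for Tbxa2r, -0.29 ± 0.08 for Pla2g4a and -0.29 ± 0.05 for Ptges3. Of 6 lipoxygenase genes 5 were tested, and none was called in any comparison by edgeR or DESeq2. With the replicate block 1 was called between genotypes with vehicle, and 1 was called without control vehicle replicate 2 (TNFα in control cells, and genotype with vehicle) and without mutant vehicle replicate 4 (TNFα in mutant cells). At an unadjusted p under 0.05 there were 1 for TNFα in control cells, 1 in mutant cells, 2 for genotype with vehicle, 0 with TNFα and 0 for the interaction.

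**Figure D5:**
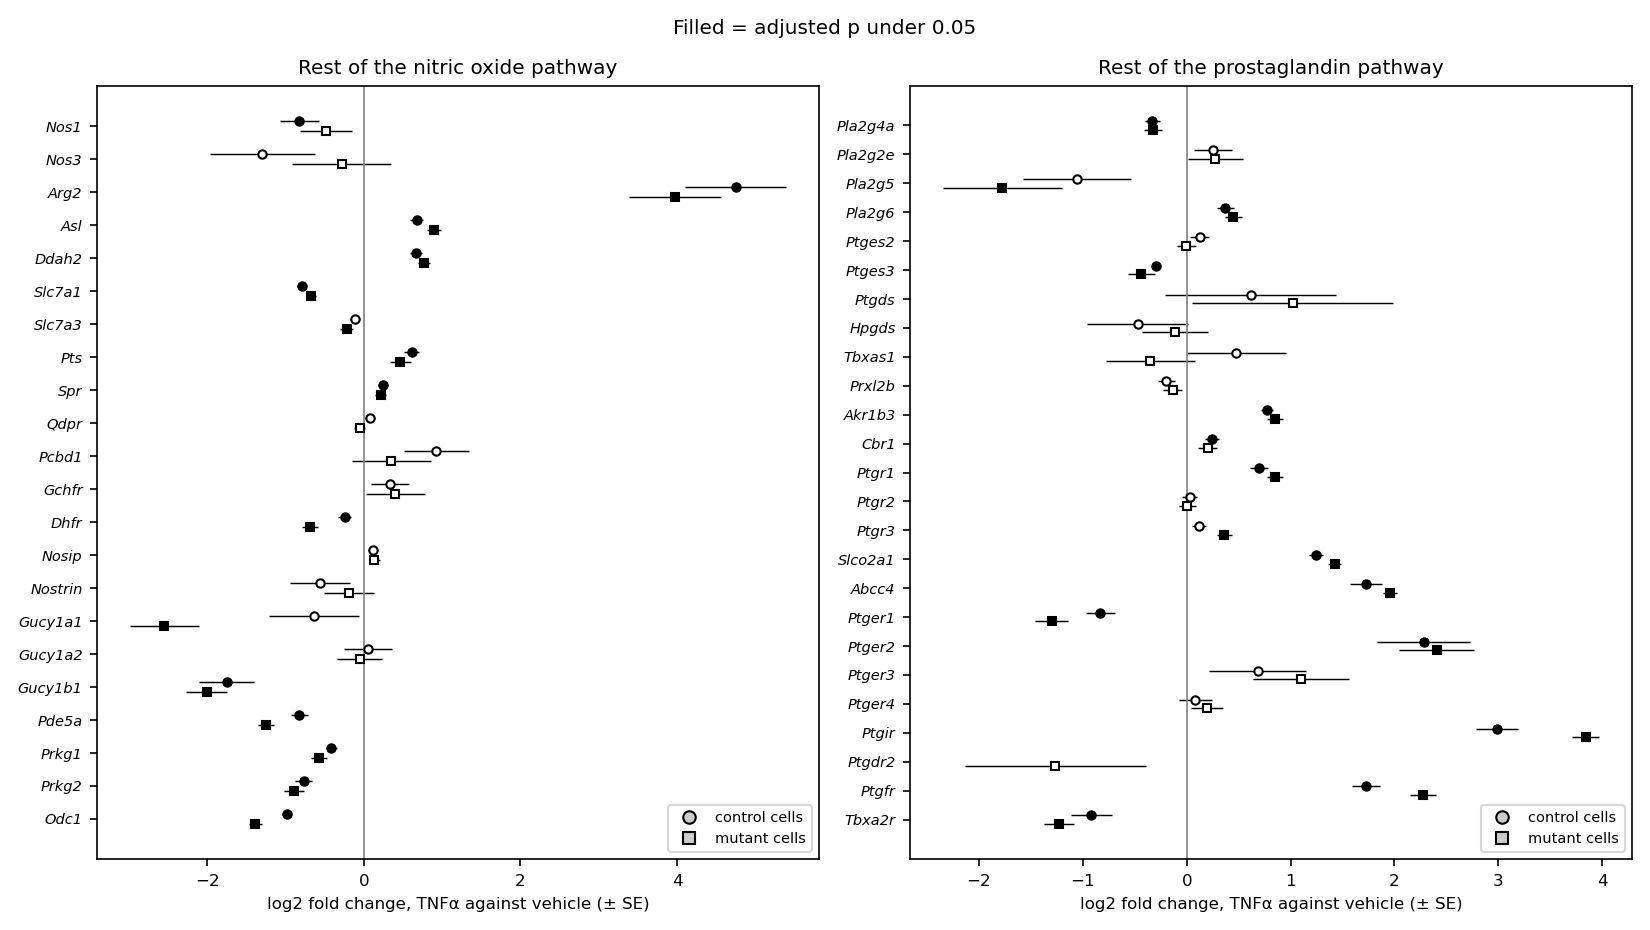
Log2 fold changes (points) with SE (bars) for TNFα against vehicle of genes in the rest of the nitric oxide and prostaglandin pathways, with circles for control and squares for mutant cells and filled points for an adjusted p under 0.05. Arg2 (4.75 in control and 3.97 in mutant cells) and Ptgir (2.99 and 3.84) lie farthest to the right among the filled points of their pathways.

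Between genotypes, 4 of 21 other nitric oxide genes were higher and 4 lower in mutant cells with vehicle, and 1 was higher and 6 lower of 22 with TNFα. With TNFα, leaving out any 1 library lowered the count to 4 to 6 in all. It was 4 without control TNFα replicate 3 or mutant TNFα replicate 1, and the share of all genes in those fits is not given. Of all genes, 6.19% were higher and 4.35% lower with vehicle and 5.63% higher and 4.31% lower with TNFα, so the 1 higher gene with TNFα was near the share of all genes. Higher with vehicle were Gucy1a1 (1.87 ± 0.34), Gucy1b1 (1.45 ± 0.22), Ddah2 (0.34 ± 0.08) and Pde5a (0.30 ± 0.08), and Ddah2 was also higher with TNFα (0.45 ± 0.07), all as log2 fold changes. Lower with vehicle and with TNFα were Gchfr, the feedback regulator of GCH1 (-1.12 ± 0.28 and -1.05 ± 0.32), Slc7a3, an arginine transporter (-0.71 ± 0.07 and -0.81 ± 0.08), and Prkg2, a kinase activated by cyclic GMP that is known from growth plate cartilage (-0.35 ± 0.10 and -0.47 ± 0.14). Nos1 was lower with vehicle (-1.14 ± 0.23) and Pts with TNFα (-0.45 ± 0.11). With control vehicle replicate 4 left out, the values with vehicle were 1.73 ± 0.37 for Gucy1a1, 1.38 ± 0.24 for Gucy1b1, 0.41 ± 0.08 for Ddah2, -1.02 ± 0.30 for Gchfr, -0.75 ± 0.07 for Slc7a3, -0.35 ± 0.11 for Prkg2 and -1.14 ± 0.25 for Nos1, each still called. With vehicle, the call of Pde5a was lost without control replicate 1, 3 or 4 or mutant replicate 2, 3 or 4 (adjusted p of 0.0616 to 0.128), and that of Prkg2 without control replicate 1 or mutant replicate 3 or 4 (0.0663 to 0.0898). With TNFα, the call of Gchfr was lost without control replicate 1, 3 or 4 or mutant replicate 1 or 3 (0.0569 to 0.176), and that of Prkg2 without control replicate 2 or 3 or mutant replicate 1 or 2 (0.0679 to 0.0859).

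Of 25 other prostaglandin genes, 2 were higher and 1 lower in mutant cells with vehicle (5 called without control vehicle replicate 4, beside 10.4% of all genes). Of 24 with TNFα, 5 were higher and 1 lower. The count with vehicle was near the share of all genes called (10.5%, or 6.19% higher and 4.35% lower), and with TNFα 5.63% of all genes were higher and 4.31% lower. Hpgds, the hematopoietic prostaglandin D synthase, was higher under both treatments (1.42 ± 0.30 and 1.80 ± 0.45), from 0.52 ± 0.0987 to 1.4 ± 0.299 CPM with vehicle. Most macrophage, fibroblast, endothelial and muscle markers were also called higher in mutant cells with vehicle, and their part in the level of Hpgds was not tested. Tbxa2r was higher as well (1.26 ± 0.14 and 0.93 ± 0.21). With TNFα Ptgfr (0.70 ± 0.10) and Ptgir (0.62 ± 0.08) were called higher and Abcc4 lower (-0.23 ± 0.06), and with vehicle Pla2g2e, a secreted phospholipase, was called lower (-0.63 ± 0.20). Calls were lost for Hpgds with TNFα without mutant replicate 3 (adjusted p = 0.0706), for Abcc4 without mutant replicate 2 (0.0582), and for Pla2g2e without control replicate 1 or 3 or mutant replicate 2, 3 or 4 (0.0961 to 0.193). Leaving out control vehicle replicate 4 gave, with vehicle, 1.55 ± 0.35 for Hpgds, 1.13 ± 0.13 for Tbxa2r and -0.68 ± 0.21 for Pla2g2e, each still called, and Abcc4 was then also called lower (-0.31 ± 0.07, adjusted p = 0.00354). No gene of the nitric oxide or prostaglandin lists was called in the interaction by edgeR, with 4 and 5 at an unadjusted p under 0.05 and with 0 and 1 called by DESeq2, and 1 nitric oxide gene was called without mutant vehicle replicate 1 or mutant TNFα replicate 1.

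The genes whose pattern was most like that of Nos2, Ptgs2 and Ptgs1 were taken by the smallest root mean square difference of mean-centered log2 levels over the 16 libraries, among 13414 genes. For Nos2 they were Gbp5, a guanylate-binding protein (0.25), and the chemokines Cxcl9 (0.38) and Cxcl10 (0.47). Gbp5 had means of 12.99, 0.0501, 300.1 and 349.8 CPM in control vehicle, mutant vehicle, control TNFα and mutant TNFα libraries, beside 16.3, 0.125, 376 and 351 CPM for Nos2, and in control vehicle both SDs exceeded the means. For Ptgs2 they were Pdk1, an inhibitor of pyruvate dehydrogenase (0.11), Pycr1, of proline synthesis (0.14), and Lrrc75b (0.14). For Ptgs1 they were Foxred2 (0.12), Aldh1a1, a retinaldehyde dehydrogenase (0.12), and B4galnt2 (0.13). Aldh1a1 was at 68.1 ± 1.26 and 47.8 ± 2.66 CPM with vehicle and at 64.6 ± 2.29 and 36.98 ± 2.36 CPM with TNFα in control and mutant cells.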

How the data were processed

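Chondrocyte-enriched cells were analyzed by RNA-Seq in 16 libraries, 4 for each combination of genotype and treatment, and 5 comparisons were made. The authors deposited whole-number counts per gene, made with htseq-count after trimming and HISAT2 mapping of stranded, paired reads of 75 bp. The study's text and the submitters' processing notes differ on the build (GRCm38 in the notes, with HISAT2 2.1.0), and the strand setting of the counting is not given in the sources used here. Entries that name no gene held 8.81 to 12.1% of a library and were left out. The depth of a library limits the precision of its low counts, and the floor of 3 counts covers counting error only.

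Counts were tested by edgeR (version 4.0.16, with limma 3.58.1, under R 4.3.3), with TMM normalization and a robust quasi-likelihood fit of genes with at least 10 counts summed over the compared libraries. The fit used the 8 libraries of each comparison, or all 16 for the interaction, and no fold cutoff. Alternatives were DESeq2 (version 1.42.0), RLE normalization, other filters and thresholds, 1 fit for all 16 libraries, a block for replicate number, and leaving libraries out. The steps were tested on simulated counts with the same dispersion for every gene and no deviating library. That test therefore does not cover the effect of control vehicle replicate 4. Python 3.11.15 with pandas 2.3.3 and numpy 2.4.6 made the tables, and matplotlib 3.10.9 the plots.

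The 10 genes and all gene lists were chosen with earlier results of these data known. From each pathway list, up to 4 called genes per direction and comparison with the largest fold changes were named, with a mean of at least 1 CPM in 1 of the groups. For Nos2, Ptgs2 and Ptgs1 the 3 genes of most similar pattern were named. Positions are those of GENCODE M39 on GRCm39, whose exon lengths may differ from those counted. Genes that overlap the 10 genes were at or below 0.986 CPM in every library. Protein sequences were not used here.

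Whether replicates were separate litters is not stated, so the p values measure the spread between these samples. Replicates differed by more than sampling noise (chi-square per degree of freedom of 2.08 to 14.6), and none was counted as a duplicate.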

Additional observations from a re-analysis of the deposited data

Results flagged for a closer look

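In groups of 4, a library was marked where its gap to the nearest other library made up most of the range of the group, by Dixon's test at the 95% level. Chance marks about 1 in 20 groups, and 40 groups were tested. For control vehicle replicate 4 this was so for Nos2 (65.2 CPM, with the others at 0), Slc7a2 (356 CPM), Ddah1 (62.1 CPM) and Ptgis (53.9 CPM), each displaced toward the control TNFα libraries. For Slc7a2 it was also so for mutant vehicle replicate 1 (140.2 CPM, below the others), and for Ptgs1 for control vehicle replicate 3 (25.7 CPM, above the others). The interaction of genotype and TNFα was called for Ass1 (0.45 on the log2 scale) and Ddah1 (-0.41), although each call was lost when certain single libraries were left out.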

How the results depend on the processing

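The number of the 10 genes called stayed within 1.5 times its value in 66 settings and moved beyond it in 23. Requiring log2 changes of 1 or more left 5 calls for TNFα in control cells and 0 between genotypes with vehicle, with TNFα and in the interaction. In the fit to all 16 libraries, 3 genes were called between genotypes with TNFα. In the interaction 1 gene was called with filterByExpr, 1 with the replicate block and 1 without both control libraries numbered 4. Leaving out 1 library at a time gave 8 to 9 calls for TNFα in control cells, 9 to 9 in mutant cells, 3 to 5 between genotypes with vehicle, 3 to 5 with TNFα and 0 to 2 in the interaction. Of all genes, the main fits called 44.2 and 44.5% for TNFα in control and mutant cells. They called 10.5 and 9.94% between genotypes with vehicle and with TNFα, and 0.474% in the interaction. Shares of all genes are not given for the replicate block, the fit to all 16 libraries or most fits without 1 library. Of the log2 fold changes of the 10 genes under the alternatives, 819 kept their direction and call, 46 lost the call, 14 gained it and 9 changed sign. The sign changed for Ptgs1 with TNFα in control cells (-0.059 to 0.040 with 1 library left out), for Ptges between genotypes with TNFα (-0.103 to 0.028) and for the interaction of Nos2 (-3.96 to 8.39, lowest without control vehicle replicate 4). It also changed without both control libraries numbered 4 for the interaction of Nos2 (-3.95) and Slc7a2 (-0.0032). The cause was not tested. Same-numbered libraries had correlations of -0.19 to 0.14, and of 0.013 to 0.14 between treatments in mutant cells. Between genotypes with TNFα they were -0.13 to -0.0064. In these comparisons without control vehicle libraries, a library correlated most with its own number only for replicate 1, between treatments in mutant cells. Comparisons with control vehicle libraries include the shift of control vehicle replicate 4, so they cannot show whether replicate numbers pair the samples. With the replicate block 8, 9, 5, 5 and 1 genes were called in TNFα in control cells, TNFα in mutant cells, genotype with vehicle, genotype with TNFα and the interaction. Depth limited Hpgd in mutant TNFα replicate 4, the shallowest library, where it had 4 counts.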
